A study of Mus musculus with 18 samples.

Results

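The exit of mouse cells from naive pluripotency was followed under Δ9-THC, the main psychoactive compound of cannabis. The comparison set 3 libraries of exposed epiblast-like cells (EpiLCs) against 3 libraries of exposed embryonic stem cells (ESCs), chosen by the labels of cell type and exposure, 6 of the 18 libraries of the series. Another 6 libraries, 3 of vehicle ESCs and 3 of vehicle EpiLCs, served to ask whether the same change differed without Δ9-THC. The 6 libraries of primordial germ cell-like cells were not analysed here.

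The ESCs were a single female mouse clone, H18, that carries fluorescent reporters of the germline genes Blimp1 and Stella, and all groups share this background. Exposed ESCs had received 100 nM Δ9-THC and control ESCs the ethanol vehicle, in medium with LIF and 2 kinase inhibitors (2i), which holds the naive state. EpiLCs were derived from the ESCs with activin A and bFGF, and exposed EpiLCs had received 100 nM Δ9-THC both as ESCs and during the derivation. RNA was selected by its poly(A) tail, libraries were made with either of 2 kits, and the values are whole-number counts of reads per gene after a batch adjustment by ComBat-seq.

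ESCs in 2i and LIF correspond to the naive epiblast of the blastocyst. Their identity rests on transcription factors such as Esrrb, Nanog, Klf4, Tfcp2l1 and Tbx3, which LIF, through STAT3, and inhibition of ERK and GSK3 sustain. When ERK signalling is released and Nodal signalling is kept on, cells switch this network off, keep Pou5f1 (Oct4), switch on Otx2 and Pou3f1 (Oct6), raise the de novo DNA methyltransferases, and reach a formative state from which germ cells can be induced. The steps below follow that order, from the loss of naive factors to the gain of formative factors, the methylation machinery and its germline targets, the signalling pathways, and the epithelial, metabolic and X-linked genes.

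The totals of the exposed libraries lay between 24103915 and 30529527 counts, and genes present in both tables held 99.6% to 99.8% of them. ESCs and EpiLCs were adjusted for batch in separate tables, and the batches are not named in the sources used here, so that a difference of cell type and a difference between the adjustments cannot be told apart. Within each table, the library of exposed cells and the vehicle library with the same replicate number deviated from their group means as near mirror images, with correlations over genes between -0.988 and -0.978 in ESCs and between -0.986 and -0.980 in EpiLCs. The exposed and vehicle libraries of a table were therefore not independent of each other, and the p-values of the test that uses both treat them as if they were. The comparison of exposed cells alone rests on the same adjusted counts. Whether the adjustment narrowed the spread between replicates, and with it the SEs and p-values, was not tested. EpiLCs THC replicate 3 stood apart in the share of counts from the mitochondrial genome (2.64%, against 5.42% and 5.70% in the other exposed EpiLCs and 1.71% to 1.97% in exposed ESCs). Vehicle EpiLCs went the opposite way, with replicate 3 at 5.48% and replicates 1 and 2 at 3.12% and 2.92%. The feature ENSMUSG00000119584 took 2.46% to 3.19% of counts in exposed ESCs and 0.477% to 0.639% in vehicle ESCs. In EpiLCs its share varied between replicates, at 3.97%, 1.79% and 0.418% in exposed cells and 0.779%, 2.19% and 3.88% with vehicle. Leaving this feature out changed no call of a named gene.

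Across the 12410 genes present in both tables, 2929 were higher in exposed EpiLCs (23.6%) and 2788 were lower (22.5%), which is 46.1% in either direction. By the adjusted p alone, 69.7% passed. A gene was called when edgeR's quasi-likelihood test gave an adjusted p (Benjamini-Hochberg, over all 12410 genes) of at most 0.05 and the log2(fold-change) was over 0.5 in size. The exposed libraries of the cell types did not overlap in 74.3% of all genes, so absence of overlap is common here and is given as a description. Levels are in CPM, counts scaled to a common library size with TMM factors, and serve to compare a gene between libraries and not genes with each other. A fall to at most 10% of the ESC level was met by 0.62% of all genes, and a rise of at least 10-fold by 0.669%. The cell labels were borne out by Esrrb, Otx2 and Dnmt3b, the markers that distinguish the states, as described next.

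The naive transcription factors fell in exposed cells, and most were nearly lost. Of the 12 factors listed, 11 were lower in exposed EpiLCs, 7 of them at no more than 10% of their ESC level, and 4 at 10% to 50%, as 8.7% of all genes were. Their median change was -4.47 on the log2 scale, against -0.0003 over all genes. Esrrb, an orphan nuclear receptor of the naive network (chromosome 12, 86361117 to 86521628 in the GRCm38 annotation), was at 830, 815 and 823 CPM in exposed ESCs and at 39.1, 34.9 and 29.4 CPM in exposed EpiLCs. All 3 EpiLC libraries lay far below all 3 ESC libraries, and 4.19% of the ESC level was left (log2(fold-change) -4.58, SE 0.11, edgeR adjusted p = 5.16e-12). Klf4, a STAT3 target and Krüppel-like factor, went from 315, 262 and 285 CPM to 4.13, 5.24 and 3.65 CPM. The T-box factor Tbx3 went from 256, 226 and 251 CPM to 2.79, 3.06 and 2.50 CPM, and 1.14% of its level was left. Prdm14, which keeps ERK signalling and de novo methylation low in naive cells, dropped from 80.3, 76.3 and 81.3 CPM to 1.54, 1.47 and 1.22 CPM. The Prdm14 levels in EpiLCs correspond to 36 to 39 counts per library. Tfcp2l1 retained 1.67% and Nr5a2 2.66% of the ESC level, and Nr0b1 (Dax1), a nuclear receptor, had a log2(fold-change) of -4.36.

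Nanog fell less far than these. It was at 1086, 957 and 1018 CPM in exposed ESCs and at 202, 216 and 199 CPM in exposed EpiLCs, so that 20.2% was left (log2(fold-change) -2.31, SE 0.09, edgeR adjusted p = 1.62e-10). Klf2, Klf5 and Zfp42 (Rex1) also kept more than 10%, with log2(fold-change) values of -2.60, -3.12 and -2.97. Gbx2 went the other way, from 12.8, 11.6 and 12.4 CPM to 21.4, 14.8 and 16.9 CPM (log2(fold-change) 0.53, SE 0.13, edgeR adjusted p = 0.00284), and its call was lost with offsets for GC content and length (0.43), without EpiLCs THC replicate 1 (0.37) and without ESCs THC replicate 2 (0.49). The promoter of Nanog is shown because it holds the composite OCT-SOX motif at which POU5F1 and SOX2 are known to bind, and these partners behaved differently, as given below. The motif was searched on both strands and found in 0.0609% of 32851 promoter windows of RefSeq (GRCm38.p6, 250 bases before to 50 after the start). Among the 9 naive factors with a window in that table, Nanog was the single match. The capitals mark the motif on the reverse strand in chr6:122707239-122707538, plus strand.
Nanog: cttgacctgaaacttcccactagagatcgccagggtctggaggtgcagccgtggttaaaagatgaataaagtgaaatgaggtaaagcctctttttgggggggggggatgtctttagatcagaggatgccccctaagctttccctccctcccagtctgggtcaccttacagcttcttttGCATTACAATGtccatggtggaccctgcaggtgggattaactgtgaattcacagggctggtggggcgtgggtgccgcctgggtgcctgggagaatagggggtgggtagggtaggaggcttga

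**Figure D1:**
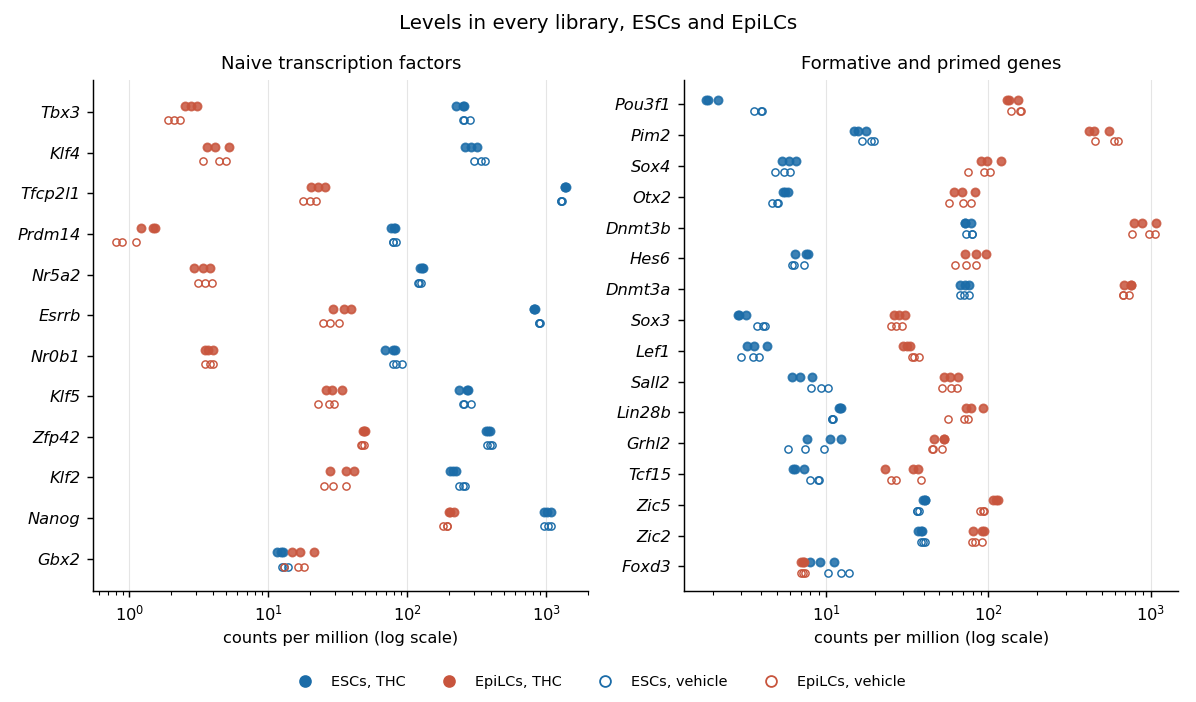
Levels of the naive transcription factors (left) and of the formative and primed genes (right) in CPM on a log scale, 1 point per library, filled for Δ9-THC and open for vehicle, blue for ESCs and red for EpiLCs. Among the naive factors, 11 of 12 lie lower in EpiLCs and Gbx2 higher; among the 16 formative genes drawn, 15 lie higher and Foxd3 lies lower without passing the size threshold.

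Other genes of the naive state fell too, to a lesser depth. Of 14 listed, 13 were lower and none was higher, where 22.5% of all genes were lower and 23.6% higher. The median change of the list was -2.0 on the log2 scale, and 4 were at no more than 10% of the ESC level, as 0.62% of all genes were. Jam2, a junctional adhesion molecule, was at 297, 245 and 285 CPM in exposed ESCs and at 2.79, 2.54 and 2.20 CPM in exposed EpiLCs, the largest fall of any gene that averaged at least 10 CPM in either cell type (0.909% left). Tdh, the threonine dehydrogenase that feeds one-carbon metabolism in mouse ESCs, fell from 428, 406 and 393 CPM to 11.1, 11.7 and 11.9 CPM. Some of these genes kept more of their level. Dppa5a kept 62.2% of its level and Dppa3 (Stella), a factor that limits maintenance methylation, kept 35.3%. The ligand Fgf4, which drives ERK signalling in these cells, had a log2(fold-change) of -0.78 and remained at 183, 168 and 178 CPM. Trim24, the 1 member not called, moved by -0.47.

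The core pluripotency factors split. Pou5f1, which both states need, was at 353, 298 and 292 CPM in exposed ESCs and at 308, 327 and 313 CPM in exposed EpiLCs. These ranges overlap, and the log2(fold-change) of 0.01 (SE 0.09) did not pass the test (edgeR adjusted p = 0.951). Its partner Sox2 fell from 360, 366 and 411 CPM to 121, 112 and 93.5 CPM, with 28.7% left. Sall4, a zinc-finger factor of the core network, kept 48.0%. In the other direction, Utf1, a chromatin factor of the pluripotent epiblast, rose from 52.1, 49.4 and 44.9 CPM to 331, 319 and 285 CPM. The RNA-binding protein Lin28a, which blocks let-7 maturation, rose 4.49-fold and Dppa4, a chromatin factor, 1.89-fold. Of the 10 genes of this list, 3 were higher, 2 lower and 5 not called, with a median of 0.19. These shares are near those of all genes (23.6% higher and 22.5% lower).

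The formative genes came on. Of 19 listed, 17 were in both tables, 16 of these were higher and none was lower, where 23.6% of all genes were higher. The median change of the list was 3.08 on the log2 scale. A rise of at least 10-fold was seen in 7 and one of 2-fold to 10-fold in 8, against 10.8% of all genes. Pou3f1, a POU factor that marks the formative epiblast (chromosome 4, 124656807 to 124660655), rose from 2.17, 1.87 and 1.83 CPM to 134, 152 and 131 CPM, the largest rise of all genes that averaged at least 10 CPM in either cell type (log2(fold-change) 6.15, SE 0.11, edgeR adjusted p = 8.73e-13). Otx2, the homeodomain factor that redirects POU5F1 to formative enhancers, rose from 5.42, 5.86 and 5.60 CPM to 61.8, 82.3 and 68.8 CPM, or 12.6-fold. The exposed libraries of the cell types were widely separated for both. Pim2, a serine kinase, rose 29.4-fold and Sox4 had a log2(fold-change) of 4.12. Sox3, Sall2, Hes6 and Lef1 rose by log2 values of 3.22, 3.06, 3.53 and 3.08. The let-7 regulator Lin28b, the epithelial factor Grhl2 and Tcf15 rose by log2 values of 2.73, 2.31 and 2.23. With offsets for GC content and length, Sox3 stood at 2.59 and Tcf15 at 1.52. Zic2 and Zic5, already detected in exposed ESCs, rose less, with log2 values of 1.22 and 1.46.

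Foxd3 was the exception among the formative genes in both tables. It was at 11.3, 8.0 and 9.17 CPM in exposed ESCs and at 7.16, 6.99 and 7.26 CPM in exposed EpiLCs (log2(fold-change) -0.40, SE 0.14), and it became a lower call with offsets for GC content and length (-0.93) and without ESCs THC replicate 2 (-0.52). Fgf5 and Fgf15, classic ligands of the postimplantation epiblast, were in the EpiLC table alone. Fgf5 stood at 14.8, 13.2 and 18.2 CPM and Fgf15 at 23.9, 26.2 and 25.4 CPM in exposed EpiLCs. The authors removed genes with low counts from each table before deposit, so no fold is given for them.

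Among the 1307 genes in the EpiLC table alone, 56 averaged at least 10 CPM in exposed EpiLCs. Among the highest were Car4, a carbonic anhydrase (113, 128 and 113 CPM), Vrtn, Sema6a and Cxcl12. The 694 genes in the ESC table alone included 26 at 10 CPM or more. Those were led by Trpm1, Cdx1, Mras, Slc15a1 and Lrrc15. Cdx1, a caudal homeobox gene and Wnt target, stood at 58.2, 58.7 and 53.9 CPM in exposed ESCs. Most genes of these groups were weakly expressed where they were listed, with a median of 1.44 CPM in ESCs and 1.64 CPM in EpiLCs.

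**Figure D2:**
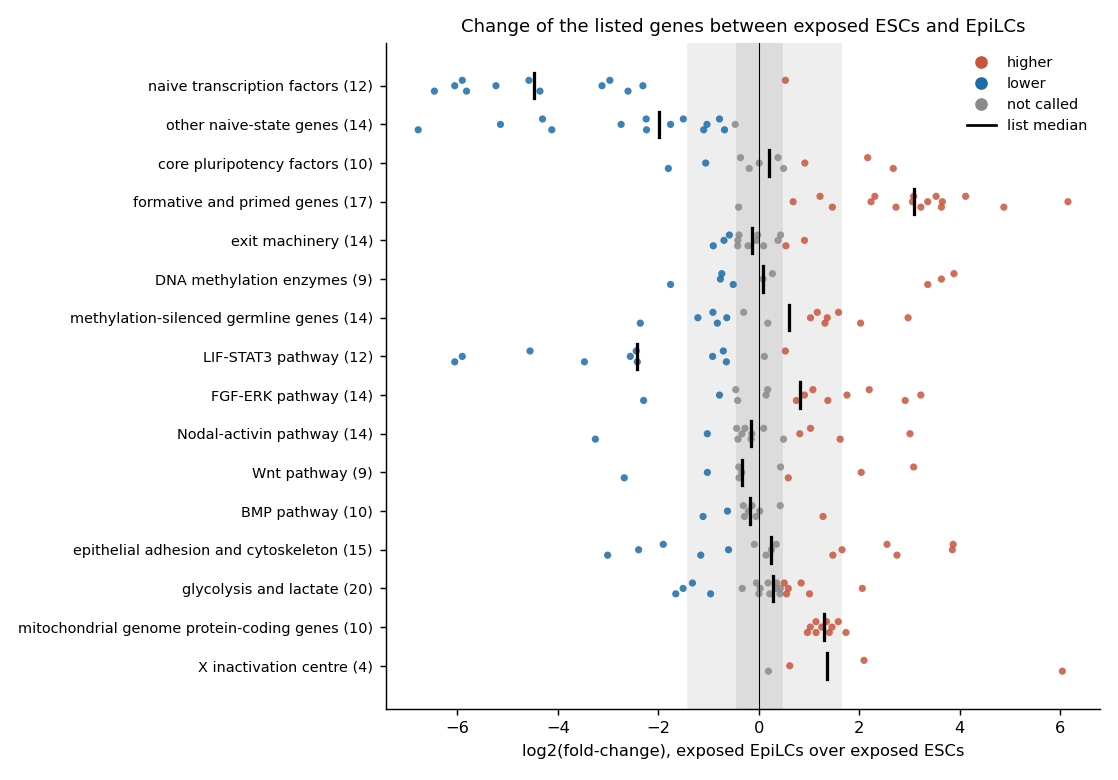
The log2(fold-change) between exposed EpiLCs and exposed ESCs (horizontal axis) for every listed gene in both tables, 1 point per gene and 1 row per list with its number of genes. Red points were called higher, blue lower and grey not called, black bars are list medians, and the shaded bands hold the middle 50% and 90% of all 12410 genes; the naive factors lie at a median of -4.47 and the formative genes at 3.08.

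Of 14 factors that act in the exit itself, 2 were higher, 3 lower and 9 not called, where 46.1% of all genes were called, with a median of -0.13. The ERK-responsive ETS factor Etv4 rose from 49.0, 52.8 and 46.3 CPM to 98.1, 92.8 and 87.1 CPM. Mbd3, a subunit of the NuRD repressor complex, was called higher at 0.54, a call that GC and length offsets removed (0.18). Fnip1, a partner of folliculin in nutrient signalling, fell by 0.91 on the log2 scale. Rbpj, the transcription factor of Notch signalling, fell by 0.59, a call lost with the same offsets (-0.48) and without EpiLCs THC replicate 2 (-0.46).

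The genes of de novo DNA methylation rose. Dnmt3b (chromosome 2, 153649450 to 153687730) rose from 78.6, 72.3 and 71.8 CPM in exposed ESCs to 890, 795 and 1079 CPM in exposed EpiLCs, or 12.4-fold (edgeR adjusted p = 4.92e-11). Dnmt3a rose from 71.7, 75.6 and 66.6 CPM to 760, 687 and 752 CPM, and their catalytically inactive cofactor Dnmt3l from 11.2, 8.16 and 9.13 CPM to 148, 124 and 147 CPM. The 3 genes rose by similar factors, 10.3-fold to 14.8-fold. The maintenance pair fell over the same step, with Dnmt1 at 58.8% and its guide Uhrf1 at 60.0% of the ESC level. Of the dioxygenases that oxidize methylcytosine, Tet2 fell from 174, 163 and 180 CPM to 50.6, 47.6 and 54.7 CPM. Tet1 was called lower at -0.51, a call lost with GC and length offsets (-0.41), without ESCs THC replicate 3 (-0.45) and without EpiLCs THC replicate 2 (-0.42). In all, 3 of the 9 genes of this list were higher, 4 lower and 2 not called, where 23.6% of all genes were higher and 22.5% lower.

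Germline genes that DNA methylation is known to silence in the epiblast and in somatic cells went in both directions. Of 17 listed, 14 were in both tables, 7 of these were higher, 5 lower and 2 not called, with a median of 0.60. Over all genes, 23.6% were higher and 22.5% lower. Mael, a piRNA pathway factor, rose from 5.46, 5.70 and 4.81 CPM to 40.0, 44.3 and 41.3 CPM, 7.84-fold. Taf7l, a germ cell paralog of a TFIID subunit, rose from 2.71, 1.67 and 2.70 CPM to 9.80, 8.81 and 9.83 CPM. The germ cell helicase Ddx4 rose from 16.4, 18.2 and 18.8 CPM to 37.2, 32.0 and 39.9 CPM. These gains held in every exposed library, although the levels of Taf7l correspond to fewer than 300 counts per library. Dazl, an RNA-binding protein that licenses germ cells, fell instead, from 45.1, 53.5 and 52.8 CPM to 8.86, 9.21 and 11.3 CPM, with 19.5% left. The remaining risers were the synaptonemal complex genes Sycp1 and Sycp3, Slc25a31 and Mov10l1, and the others that fell were Stk31, Rpl10l, Tex19.1 and Sohlh2. Rpl10l is a retrocopy of Rpl10, so reads of the 2 genes may be split between them.

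Promoters of many listed germline genes, those that rose among them, held a short sequence that was not used to list them. The hexamer CACGTG, an E-box that reads the same on both strands, was found in the promoter windows of all 7 genes that rose and of 1 of the 5 that fell (Stk31). In the whole list it was common too, in 10 of 16 windows (62.5%), with Hormad1, not called, and Brdt, in the EpiLC table alone, among them. Over all 32851 windows it was present in 7.15%, over the genes in both tables in 12.2%, over those called higher in 10.8% and over those called lower in 12.7%. The E-box was 1 of 8 motifs searched and was singled out after its matches were seen, so the counts are a description. The windows of 3 genes that rose are printed with the E-box in capitals, with that of Dazl, which holds none, for contrast. All lie on the minus strand, Mael in chr1:166238695-166238994, Taf7l in chrX:134476441-134476740, Ddx4 in chr13:112652261-112652560 and Dazl in chr17:50293571-50293870 (RefSeq, GRCm38.p6).
Mael: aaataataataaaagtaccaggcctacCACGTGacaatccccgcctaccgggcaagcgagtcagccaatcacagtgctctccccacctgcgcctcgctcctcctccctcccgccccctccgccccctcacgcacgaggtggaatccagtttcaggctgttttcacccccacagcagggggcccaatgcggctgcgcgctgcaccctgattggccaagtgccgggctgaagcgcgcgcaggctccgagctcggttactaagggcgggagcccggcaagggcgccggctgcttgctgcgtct
Taf7l: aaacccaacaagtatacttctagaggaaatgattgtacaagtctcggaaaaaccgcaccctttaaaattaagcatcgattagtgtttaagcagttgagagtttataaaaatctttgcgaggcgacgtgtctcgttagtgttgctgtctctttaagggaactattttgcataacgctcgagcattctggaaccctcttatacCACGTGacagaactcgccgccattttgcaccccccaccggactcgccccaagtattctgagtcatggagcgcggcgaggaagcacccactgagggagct
Ddx4: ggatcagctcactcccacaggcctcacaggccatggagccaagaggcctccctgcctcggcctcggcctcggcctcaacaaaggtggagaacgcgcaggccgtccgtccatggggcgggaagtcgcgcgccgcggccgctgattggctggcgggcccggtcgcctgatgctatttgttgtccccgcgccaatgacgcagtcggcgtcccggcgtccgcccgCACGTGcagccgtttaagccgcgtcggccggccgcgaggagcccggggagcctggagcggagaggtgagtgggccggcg
Dazl: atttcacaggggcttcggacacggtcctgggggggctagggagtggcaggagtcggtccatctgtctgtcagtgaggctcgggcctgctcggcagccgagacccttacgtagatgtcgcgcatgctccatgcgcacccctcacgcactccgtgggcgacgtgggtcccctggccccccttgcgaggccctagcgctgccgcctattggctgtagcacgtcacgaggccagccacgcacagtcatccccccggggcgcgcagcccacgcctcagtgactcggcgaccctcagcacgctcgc

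**Figure D3:**
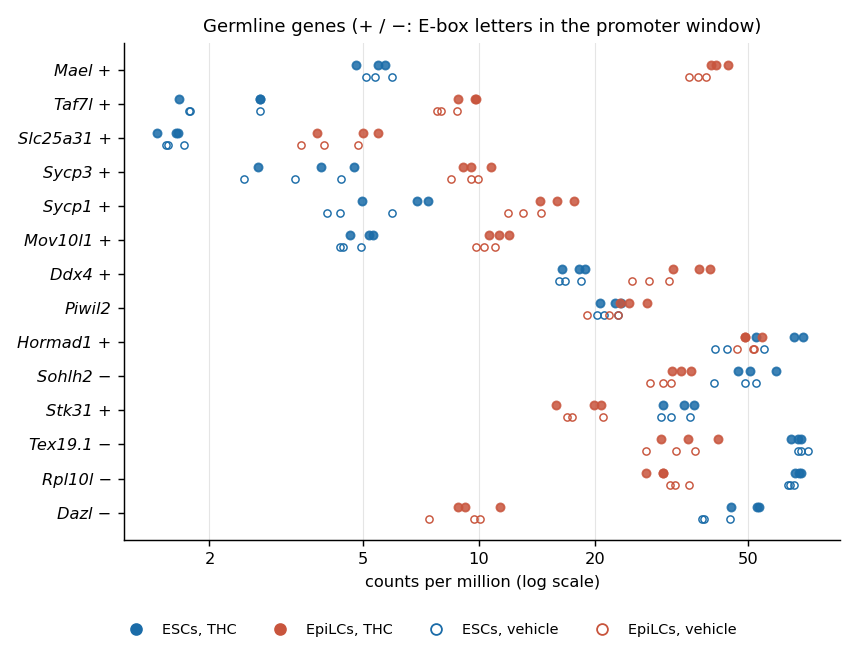
Levels of the 14 germline genes in both tables, in CPM on a log scale, 1 point per library, filled for Δ9-THC and open for vehicle, blue for ESCs and red for EpiLCs. A plus sign after a gene marks CACGTG in its promoter window and a minus sign its absence, and Piwil2 had no window; the 7 genes that rose carry a plus sign, as do Hormad1, which was not called, and Stk31, which fell.

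Components and targets of LIF-STAT3 signalling fell. Of 12 genes listed, 10 were lower and 1 higher (Gbx2), with a median of -2.43, where 22.5% of all genes were lower. The naive list also holds Gbx2, Klf4 and Tfcp2l1, so the falls of Klf4 and Tfcp2l1 are counted in both lists. The LIF receptor gene Lifr fell from 61.1, 65.3 and 70.2 CPM to 11.8, 10.8 and 10.7 CPM, and Il6st, which encodes its signalling partner gp130, from 158, 155 and 167 CPM to 31.3, 29.3 and 29.2 CPM. The transducer Stat3 fell from 95.9, 102 and 102 CPM to 19, 18.1 and 18 CPM. Receptor and transducer thus retained similar shares, 17.0% and 18.4% of their ESC levels. Of the targets, the feedback inhibitor Socs3 kept 9.01% and Bcl3 4.25%. The kinase gene Pim1 was at 175, 182 and 172 CPM in ESCs and 211, 186 and 174 CPM in EpiLCs, with overlap and no call.

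Several feedback genes of ERK signalling rose and others were not called, whereas Egr1 fell. Of 14 FGF-ERK genes in both tables, 8 were higher, 2 lower and 4 not called, with a median of 0.83. Over all genes, 23.6% were higher and 22.5% lower. The phosphatase Dusp6, which restrains ERK, rose from 14.4, 10.8 and 12.9 CPM to 125, 99.3 and 131 CPM. Dusp4 (2.91), Spry4 (2.20), Fgfr2 (1.75), Spred1 (1.37), Spry1 (1.08) and Fgfr1 (0.75) were higher as well, on the log2 scale. The feedback inhibitors Spry2 (-0.46), Spred2 (0.18) and Il17rd (0.14) and the target Etv5 (-0.42) were not called, although Spry2 became a lower call without ESCs THC replicate 2 (-0.51). Egr1, an immediate early gene of ERK signalling, went from 28.9, 22.4 and 26.2 CPM to 7.44, 3.53 and 4.83 CPM, with 20.4% left. In vehicle cells Egr1 was at 23.5, 29.7 and 25.8 CPM in ESCs and at 13.9, 23.3 and 20.4 CPM in EpiLCs, so the exposed EpiLC libraries lay below all vehicle EpiLC libraries. The difference of the 2 changes was -1.84 on the log2 scale (SE 0.32) and did not pass the test (edgeR adjusted p = 0.0526).

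Nodal signalling showed a rise of its feedback inhibitor and little change of its transducers. Lefty1, which encodes a secreted Nodal antagonist, rose from 26.0, 32.9 and 25.9 CPM to 254, 217 and 213 CPM, 8.05-fold. The ligand Nodal rose from 63.3, 60.3 and 59.4 CPM to 121, 106 and 94.2 CPM. The proprotein convertase gene Pcsk6 fell from 91.1, 80.8 and 86.6 CPM to 9.92, 7.86 and 9.25 CPM and Furin, of the same family, had a log2(fold-change) of -1.03. Of the 14 genes in both tables, 4 were higher, 2 lower and 8 not called, with Smad2, Smad3 and Smad4 among the last. Over all genes, 23.6% were higher and 22.5% lower, so the counts of this list do not set it apart.

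Some genes of the Wnt pathway were down or missing from the EpiLC table, and others rose. Axin2, a negative feedback target of β-catenin, fell from 45.5, 47.4 and 47.1 CPM to 7.79, 7.18 and 6.89 CPM (15.6% left), and Apcdd1 fell by 1.03 on the log2 scale. Sp5, Notum, T and Cdx1 were in the ESC table alone, Sp5 at 14, 12.1 and 11.9 CPM. Against these, the β-catenin partner Lef1 rose from 4.30, 3.27 and 3.61 CPM to 32.8, 29.7 and 31.7 CPM, and the feedback gene Nkd1 was higher too (2.04), at under 9 CPM throughout. Rnf43 was in the EpiLC table alone, at 0.827, 1.27 and 0.810 CPM in exposed EpiLCs. Of 16 genes listed, 9 were in both tables, with 3 higher, 2 lower and 4 not called. Among 10 genes of the BMP pathway, Id2 was higher (1.28), Id1 and Acvr1 were lower (-1.11 and -0.63) and 7 were not called. The Wnt and BMP counts stand beside 23.6% higher and 22.5% lower over all genes, and do not set these lists apart.

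The keratin and claudin genes of epithelia on the list rose, and several genes of mesenchymal character fell. Krt18, a simple epithelial keratin, rose from 4.5, 5.03 and 3.82 CPM to 65.0, 79.3 and 52.2 CPM, and the tight junction gene Cldn6 from 6.97, 5.70 and 4.32 CPM to 85.8, 84.1 and 75.6 CPM. Epcam (2.55), Cldn7 (2.75), Podxl (1.66) and Krt8 (1.47) were higher as well. The repressor of epithelial genes Zeb1 fell from 32.2, 33.6 and 33 CPM to 4.53, 3.97 and 3.78 CPM, together with Vim (-1.90), Cdh2 (-1.16) and Fn1 (-2.39). E-cadherin, encoded by Cdh1, was at 595, 615 and 604 CPM in ESCs and at 819, 727 and 759 CPM in EpiLCs, without overlap but under the size threshold (0.35). The mesenchymal factor Snai1 was not called (0.25), Snai2 was in the ESC table alone and Zeb2 in neither. Of 15 genes in both tables, 6 were higher (40.0%), 5 lower (33.3%) and 4 not called, where 23.6% of all genes were higher and 22.5% lower.

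Glycolysis genes went in both directions, also within families of isoenzymes. Of 20 listed, 6 were higher, 4 lower and 10 not called, shares near those of all genes (23.6% and 22.5%), with a median of 0.28. The lactate exporter gene Slc16a3 rose from 41.2, 71.1 and 58.5 CPM to 242, 233 and 239 CPM and Pdk1, a brake on pyruvate oxidation, rose by 1.01 on the log2 scale. Hexokinase Hk1 fell from 177, 200 and 181 CPM to 66.1, 54.8 and 56.4 CPM while Hk2 moved by -0.33. Of the phosphofructokinase genes, Pfkp was lower (-1.51) and Pfkl (0.84) and Pfkm (0.55) were higher. The glucose transporter Slc2a3 was lower (-1.32) and Slc2a1 higher (0.59), a call lost without ESCs THC replicate 1 (0.47), and the lactate dehydrogenase gene Ldhb was lower (-0.96). Several of these genes have processed pseudogenes that may share reads.

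All 10 protein-coding genes of the mitochondrial genome in both tables were higher, with a median of 1.30, where 23.6% of all genes were higher. mt-Co1, a subunit of cytochrome oxidase, was at 8432, 9707 and 9880 CPM in exposed ESCs and at 26828, 27730 and 12165 CPM in exposed EpiLCs. EpiLCs THC replicate 3 was thus near the ESC range and the other exposed EpiLC libraries far above it; the list's median without that library was 1.58, with all 10 genes still called. In vehicle EpiLCs, replicate 3 had the highest summed level of the list (54661 CPM, against 29651 and 28426 CPM). mt-Co2, mt-Co3 and mt-Atp6 stood below 20 CPM in every exposed library, and a near-identical copy of them in the nuclear genome makes uniquely mapped counts of these genes uncertain.

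Xist, the RNA that coats the inactive X chromosome in female cells, rose from 2.42, 2.93 and 1.74 CPM to 126, 175 and 173 CPM (log2(fold-change) 6.04, SE 0.18). The neighbouring noncoding gene Ftx rose from 3.38, 2.80 and 2.99 CPM to 9.45, 15.5 and 14 CPM. Rlim, the X-linked activator of Xist, was higher (0.61), and Tsix, the antisense partner of Xist, was at no more than 3.65 CPM and not called. The genes overlap and reads were counted without strand, so reads of Xist and Tsix cannot be told apart. Of 464 X-linked genes, 105 were higher (22.6%) and 163 lower (35.1%), with a median of -0.18. Of 11913 autosomal genes, 23.5% were higher and 22.0% lower, with a median of 0.00. In a bulk sample, fewer cells that express a gene and less RNA per cell cannot be told apart, here as for all genes above.

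Markers of other cell types were mostly missing or low. Of 10 mesoderm and endoderm markers, Foxa2, Sox17, Mesp1, Evx1 and Cer1 were in neither table, T and Gsc in the ESC table alone, Wnt3 and Mixl1 in the EpiLC table alone, and Eomes fell from 11.1, 16.1 and 13.7 CPM to 4.29, 5.32 and 4.53 CPM. Of 8 primitive endoderm markers, Gata6, Sox7 and Pdgfra were in neither table. Of the 4 in both tables, 3 were lower and 1 higher. These 4 summed to 427 to 465 CPM in exposed ESCs and 129 to 147 CPM in exposed EpiLCs, mostly from Sparc and Lama1. Col4a1, also on that list, rose from 6.01, 6.13 and 6.81 CPM to 21.9, 14.7 and 19.5 CPM, and Dab2 was in the EpiLC table alone. Cdx2, Elf5, Hand1 and Gata3 of the 7 trophectoderm markers were in neither table. The summed level of the 3 in both tables went from 132 to 135 CPM to 26.9 to 32.4 CPM, mostly from Tfap2c, which naive cells express, while Krt7 rose to between 6.28 and 7.34 CPM. The 2 neural markers in both tables, Sox1 and Nes, were higher (1.93 and 0.99), with a sum of 35.6 to 40.7 CPM in ESCs and 71.3 to 92.7 CPM in EpiLCs, and Pax6 and Neurod1 were in the EpiLC table alone. Of 7 fibroblast markers, Col1a1 fell to under 2 CPM and Thy1 rose to 9.76, 12.7 and 11.3 CPM, with Col3a1, Lum and Postn in neither table. Germ cell specification markers that naive ESCs share, Kit, Tfap2c, Dppa3 and Prdm14, were lower, Dnd1 was higher (0.98) and Prdm1 was not called (0.09). The 2-cell-like genes Zscan4c and Zscan4d, near-identical copies, were called higher (0.80 and 1.23) but stayed below 4 CPM. The part of other cells in the results was not tested.

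How far exposed cells went was then set against the vehicle libraries, by testing whether the ESC to EpiLC change differed between exposures in a model of the 12 libraries. The edgeR interaction test called 4 of 12410 genes (0.0322%) at an adjusted p of at most 0.05, and no listed gene was among them. At an unadjusted p under 0.05 it gave 1703 genes (13.7%). The difference was above 0, a larger rise or a smaller fall with Δ9-THC, in 52.9% of all genes.

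The 4 genes were Myo6, Cul9, Dzip1 and Zfp36, each at an edgeR adjusted p of 0.0429. A replicate block in the edgeR fit ended all 4 calls, and the smallest adjusted p was then 0.378. Myo6, an actin motor, was at 23.2, 21 and 24.2 CPM in exposed ESCs and at 13.3, 14.3 and 13.4 CPM in exposed EpiLCs, against 25.6, 28.1 and 24.5 CPM and 8.98, 8.34 and 8.78 CPM with vehicle. Its fall was thus smaller in exposed cells, by 0.85 on the log2 scale (SE 0.11). Dzip1, a gene of cilium formation, also fell less, with 44.9% of its level left in exposed cells and 27.8% in vehicle cells (difference 0.69, SE 0.10). Cul9, a cullin of ubiquitin ligases, rose from 1.92, 1.8 and 2.03 CPM to 5.24, 5.0 and 4.76 CPM in exposed cells and from 3.07, 3.30 and 2.94 CPM to 3.69, 3.95 and 4.08 CPM with vehicle (difference 1.05, SE 0.14), at fewer than 150 counts per exposed library. Zfp36, which promotes decay of AU-rich mRNAs, was at 10.4, 9.50 and 10.3 CPM and 12.7, 12.2 and 12.4 CPM in exposed cells, and it rose to 20.1, 20.9 and 20.4 CPM with vehicle (difference -0.67, SE 0.09). The next gene, Prex1, missed the threshold (0.63, edgeR adjusted p = 0.0526). With any 1 of the 12 libraries left out, the test called 0 genes, with 1241 to 1851 at an unadjusted p under 0.05.

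**Figure D4:**
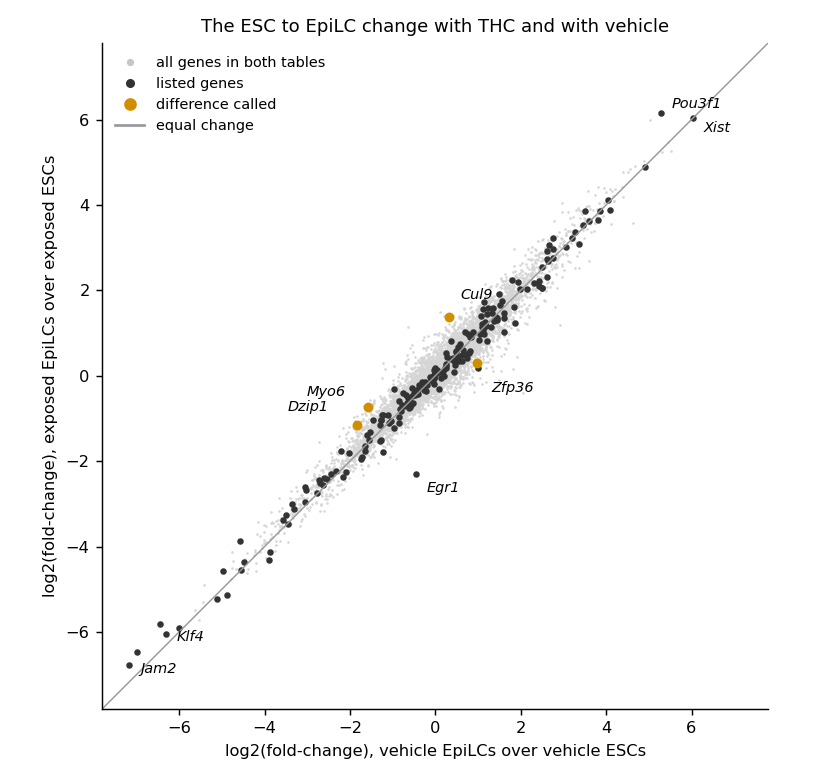
The log2(fold-change) between EpiLCs and ESCs with vehicle (horizontal axis) and with Δ9-THC (vertical axis), in grey for all 12410 genes in both tables, black for listed genes and ochre for the 4 genes whose difference was called; the grey line marks equal change. Most listed genes lie near the line, and Egr1 lies furthest below it among them, at -2.29 with Δ9-THC and -0.46 with vehicle.

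For the naive factors, no gene passed the test of the difference. The median log2(fold-change) of the 12 factors was -4.47 with Δ9-THC and -4.74 with vehicle, and the difference was above 0 in 11 of them, against 52.9% of all genes, with Nr5a2 the exception. An unadjusted p under 0.05 was reached by Esrrb, Klf2, Tbx3 and Prdm14, all with the difference above 0, 4 of 12 where 8.9% of all genes did so above 0 and 4.83% below. Prdm14 had the largest difference (0.62, SE 0.16, edgeR adjusted p = 0.141), and its vehicle EpiLC libraries stood at 0.800, 0.885 and 1.11 CPM, all below the exposed ones. For Esrrb, 4.19% of the level was left with Δ9-THC and 3.17% with vehicle, from 24.7, 28.0 and 32.3 CPM in vehicle EpiLCs, which overlap the exposed libraries. Its exposed ESC libraries (830, 815 and 823 CPM) lay below those of vehicle ESCs (883, 900 and 890 CPM). Klf2 likewise overlapped in EpiLCs and lay lower in exposed ESCs. For Prdm14 and Tbx3 the ESC libraries overlapped, and the exposed EpiLC libraries lay above those with vehicle. Among other naive genes, the difference was above 0 in 7 of 14, and Tet2 had the smallest adjusted p (0.44, SE 0.10, edgeR adjusted p = 0.102), with 29.6% left against 21.8%.

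No formative gene passed the test of the difference. The difference was above 0 in 13 of 17, and in 52.9% of all genes. Pou3f1 had the largest (0.86, SE 0.15, edgeR adjusted p = 0.0526), with a rise of 71.2-fold against 39.1-fold. Its exposed EpiLC libraries overlapped those of vehicle EpiLCs (156, 137 and 158 CPM), whereas its exposed ESC libraries lay below those of vehicle ESCs (3.59, 3.96 and 4.01 CPM). Otx2 rose 12.6-fold with Δ9-THC and 13.9-fold with vehicle, and Dnmt3b 12.4-fold and 12.1-fold. Of the 20 glycolysis genes, none passed the test either, and the difference was above 0 in 4.

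Positions along the vehicle change describe the same per library. For each list, the log2 CPM of a library was projected on the line from the mean of vehicle ESCs, set to 0%, to the mean of vehicle EpiLCs, set to 100%. Exposed EpiLCs reached 94.6%, 95.1% and 98.9% for the naive transcription factors, where vehicle EpiLCs stood at 102%, 101% and 97.2%. The vehicle means lie at 0% and 100% by construction, which the exposed libraries do not share, so a position short of 100% or a lack of overlap is no measure of a delay. For the formative genes they reached 99.9%, 101% and 101%. Exposed and vehicle EpiLCs overlapped for both lists, and no test was made, since the lists were chosen with results known. They did not overlap for the DNA methylation enzymes (91.9% to 96.5%), the core factors (95% to 97.2% in exposed cells, 99% to 101% with vehicle), the Wnt genes (93.3% to 96.6%), the glycolysis genes (89.2% to 94.2%) and the germline genes (105% to 108%), nor for the exit machinery, where exposed EpiLCs stood at 66.5% to 88.1% and vehicle EpiLCs at 88.7% to 109% of a small change. Over the 5944 genes called with vehicle, exposed EpiLCs stood at 95.2%, 101% and 95.8%, and exposed ESCs at 1.11%, 2.10% and 0.177%.

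**Figure D5:**
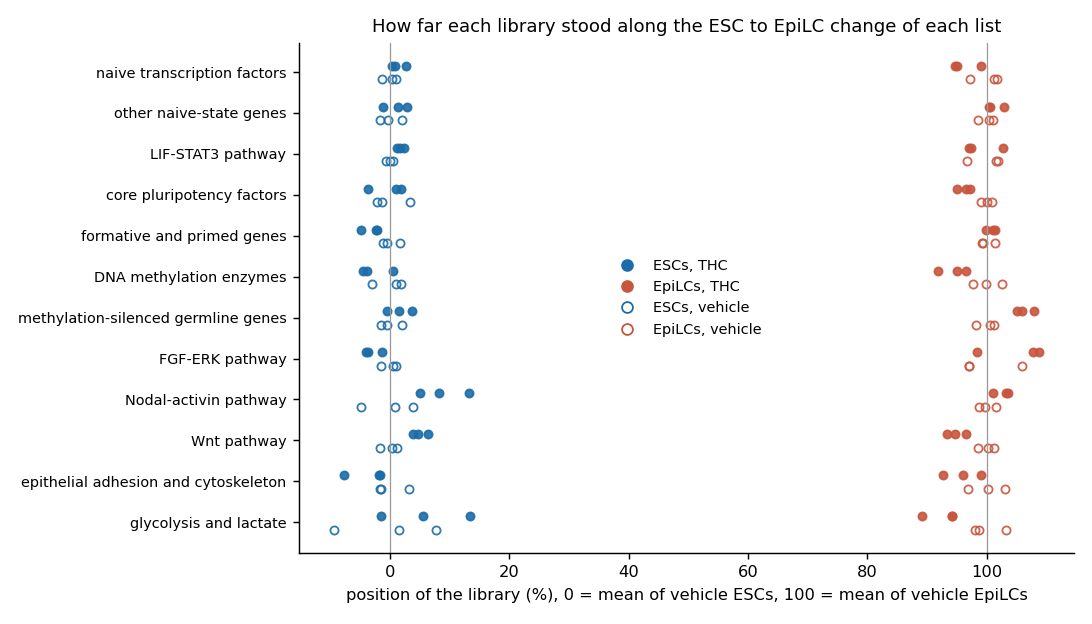
Position of each library (horizontal axis, in percent) between the mean of vehicle ESCs at 0 and the mean of vehicle EpiLCs at 100, for 12 of the lists of genes, without the exit machinery, BMP, mitochondrial and X inactivation lists, 1 point per library, filled for Δ9-THC and open for vehicle, blue for ESCs and red for EpiLCs. In the lists drawn, exposed EpiLCs lie between 89.2% (glycolysis and lactate) and 109% (FGF-ERK pathway) and exposed ESCs between -7.70% and 13.4%.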

How the data were processed

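RNA-seq counts of ESCs and EpiLCs were used. Per the study's methods, the authors used STAR for alignment and HTSeq for gene counts of reads with 1 location, ignoring strand, then removed genes with low counts and applied ComBat-seq. What they deposited is 1 table of whole-number counts per cell type, unscaled. The build is named both as mm10 and as GRCm39; positions are from GENCODE M21 (GRCm38) by gene identifier, for 12393 of 12410 genes. Totals were 23427551 to 32096698 counts over the 12 libraries.

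Genes in both tables were compared with edgeR 4.0.16 in R 4.3.3 (quasi-likelihood test, TMM, Benjamini-Hochberg), 3 exposed EpiLC against 3 exposed ESC libraries. The vehicle change came from a separate fit of the 6 vehicle libraries, and the interaction from a fit of all 12 libraries. Log2 CPM for positions used a prior count of 2. On simulated counts with 200 genes changed by a log2(fold-change) of 1 among 12410, the comparison recovered 98.5% (7.51% of calls false) and the interaction 82.5% (2.94%). Simulated libraries were drawn independently of each other. The exposed and vehicle libraries of a table were not independent, so the interaction shares do not carry over to these data. Simulated calls used the adjusted p alone, and 200 changed genes are far fewer than were called here.

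Genes named are members of 16 lists and 7 marker lists, the 5 largest changes each way among called genes averaging at least 10 CPM, and the 5 smallest interaction p-values. Lists were chosen with earlier results of these data known. Alternatives were RLE factors, at least 10 counts in every library, totals of all genes of a table, the replicate block, offsets for GC content and length (splines, 5 degrees of freedom), DESeq2 1.42.0, 1 abundant feature left out, all 12 libraries fitted together, other size thresholds and each library left out. The values of a few listed genes are not reported here.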

Additional observations from a re-analysis of the deposited data

Results flagged for a closer look

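For 4 genes the ESC to EpiLC change differed between exposures by the interaction test of edgeR (adjusted p = 0.0429 each). The difference, Δ9-THC minus vehicle on the log2 scale, was 0.85 for Myo6, 1.05 for Cul9, 0.69 for Dzip1 and -0.67 for Zfp36. With the replicate block, or without any 1 library, none of them passed. No test for single outlying libraries was made, because every group held 3 libraries.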

How the results depend on the processing

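The comparison of exposed EpiLCs with exposed ESCs gave 5717 called genes (2929 higher, 2788 lower), and 5322 to 5929 (2703 to 3097 higher, 2619 to 2832 lower) with a library left out. A size threshold of 1 gave 2585 (1428 higher, 1157 lower), and no size threshold 8649 (4345 lower). The interaction count of 4 became 20 with GC and length offsets and 133 with DESeq2, which both held the 4 genes. It was 0 with the replicate block (978 genes at an unadjusted p under 0.05), 0 with the replicate block and the offsets together (954), and 0 in every fit without 1 of the 12 libraries. The cause was not tested. In the comparison of exposed cells, the replicate block gave 5738 calls, 5688 of them shared with the fit without it. Same-numbered exposed ESC and EpiLC libraries deviated together only weakly (r = 0.0368 to 0.1235, 1 of 3 pairs over 0.1, and 2 of 3 libraries correlated best with their own number). Within each table, same-numbered libraries were near mirror images, so the adjustment may have removed deviations that a replicate number shares. These correlations therefore cannot decide whether the numbers pair the libraries. The main fit did not pair them. Pou5f1, near 0 and not called in any fit, changed sign with GC and length offsets (-0.0694), with the replicate block and the offsets together (-0.066) and with a library left out (-0.0436 to 0.0982). Snai1, also not called, changed sign with the offsets (-0.0458) and with the replicate block and the offsets together (-0.054), and Prdm1 with a library left out (-0.0313 to 0.2102). Of 144 genes in both tables named in the text, 134 kept direction and call under all 15 alternatives, each at the main size threshold. None that was called changed direction. Those that changed call were Gbx2, Foxd3, Mbd3, Rbpj, Tet1, Spry2 and Slc2a1. Other size thresholds are not part of these 15. At a size threshold of 1, calls of named genes with smaller changes, such as Dnmt1 (-0.77) and Uhrf1 (-0.74), would be lost. Over list medians, 341 values moved by less than the spread between replicates and 4 by more, for the other naive genes and the Wnt genes. Counts under 100 per library limit the precision for genes near 1 CPM.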
